A study of Mus musculus with 10 samples.

Results

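The comparison set the response of Cdc42-deficient oviduct organoids to a differentiation cue against the response of control organoids, gene by gene. Each response was the level after differentiation minus the level before it, on the scale of log2(FPKM + 1), where FPKM counts fragments relative to a gene's exon length and the size of its library. The quantity examined was the PgrKO response minus the F/F response, so a negative value means that the gene went less far up, or further down, in PgrKO organoids. It used 8 of the 10 libraries of the series, 2 each of PgrKO_Diff, PgrKO_Con, F/F_Diff and F/F_Con, and covered 15816 genes. The remaining libraries, 1 of AdKO_Diff and 1 of AdKO_Con, had no replicate, and their values are given only beside the others.

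The organoids were grown from epithelial cells of the isthmus of mouse oviducts. PgrKO organoids came from Pgr Cre/+ Cdc42 f/f females, in which Cre is driven by the progesterone receptor gene, so recombination follows the cells that express that receptor. F/F organoids came from Cdc42 f/f control females without Cre, which carry the same floxed Cdc42 alleles as the PgrKO animals. AdKO organoids were F/F organoids that had been infected in culture with an adenovirus carrying Cre. Diff organoids received 10 nM estrogen (E2) and 1 µM DBZ for 6 days, and Con organoids were left undifferentiated. The labels give differentiation day 6 for Diff and day 0 for Con, so treatment and days of culture cannot be told apart in a response. DBZ blocks γ-secretase, the protease that releases the active part of Notch receptors. Nothing in the labels ties the 2 libraries of a group to separate mice, so the p-values reflect the scatter of these libraries, which may be technical.

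The oviduct epithelium holds secretory cells and multiciliated cells. When Notch signaling is blocked and estrogen is present, secretory cells of the organoids leave the cell cycle, build many centrioles and grow motile cilia, while estrogen acts on its own targets through its receptor. CDC42 is a small GTPase that organizes actin, cell polarity and junctions. The study asked whether organoids without it still respond to this cue. The description below puts its weight on genes outside the cilium.

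Cdc42 itself read 113 and 134 FPKM in PgrKO_Diff, 104 and 105 in PgrKO_Con, 125 and 126 in F/F_Diff and 118 and 133 in F/F_Con. A single value per gene does not show whether the floxed part is missing, so these levels check no label. Recovered reads numbered 11744271 to 17330672 per library, and the correlation of replicate libraries over the genes tested was 0.966 in both F/F groups and 0.935 to 0.949 in the PgrKO groups. Epithelial markers were high throughout, with a sum over 13 genes of 2051 to 2675 FPKM in the PgrKO libraries and 2272 to 3089 in the F/F libraries. Markers of other cell types differed between libraries. The sum over 25 macrophage and leukocyte markers was 385 and 1795 FPKM in PgrKO_Diff, 357 and 1318 in PgrKO_Con, 207 and 78 in F/F_Diff and 238 and 417 in F/F_Con, with the higher PgrKO value in replicate 2 both times. The sum over 24 fibroblast and matrix markers was 395 and 1331 FPKM in PgrKO_Diff, 554 and 651 in PgrKO_Con, 179.7 and 127 in F/F_Diff and 380.4 and 357 in F/F_Con. Of these markers, 2 to 4 of the leukocyte genes and 1 or 2 of the fibroblast genes were at 0 in a PgrKO library, against 3 to 10 and 1 to 7 in an F/F library. In bulk RNA, fewer cells of a type and less RNA per cell cannot be told apart.

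In F/F organoids, 1386 genes rose and 535 fell with differentiation, which is 8.76% and 3.38% of the genes tested (limma, adjusted p under 0.05 and a log2 change beyond 1). In PgrKO organoids, limma called 0 genes (0%), with a smallest adjusted p of 0.366 and 1179 genes at an unadjusted p under 0.05, and voom on recovered reads also called 0. The difference between the responses was tested directly, as an interaction in the same fit. It was called below 0 for 610 genes, 3.86% of those tested, and above 0 for 66 genes, 0.417%. Without the size minimum it passed below 0 for 618 genes (3.91%) and above 0 for 79 (0.499%). Of the 676 called genes, 630 had also been called in F/F organoids and 46 had not. An unadjusted p under 0.05 for the difference was found for 3569 genes, 22.6% of those tested. The median difference over all genes was 0.07.

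These calls lay close to the threshold. Their adjusted p ran between 0.0428 and 0.05, and the genes on each side of it hardly differ: Lrrc6, a dynein arm assembly factor, had a difference of −3.33 at an adjusted p of 0.04999 by limma, and D930048N14Rik, just outside the threshold, had 1.47. Limma called 458 genes without PgrKO_Con replicate 1 and 0 genes when any other F/F or PgrKO library was left out, with smallest adjusted p between 0.0592 and 0.144 and 2668 to 4003 genes at an unadjusted p under 0.05. In each of these 8 fits all 676 genes kept their sign. They were chosen for a large difference in these same libraries, so a kept sign is no separate support. The F/F response itself also had 0 calls by limma when replicate 2 of either F/F group was left out. It had 1133 calls when F/F_Con lacked replicate 1 and 1204 when F/F_Diff lacked it. Every class count that follows therefore rests on all 8 libraries together, while the levels in each library stand on their own. Leaving out replicate 2 of both PgrKO groups, the libraries with most leukocyte markers, also ended the calls (limma, 0 genes, smallest adjusted p 0.164, 2815 genes at an unadjusted p under 0.05), and all 676 genes kept their sign there too.

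Genes that had been called in F/F organoids were sorted by what PgrKO organoids did. A response was called lost when the difference between the responses passed the test against the F/F direction and the PgrKO response stayed within 1 log2 unit of 0. It was called kept when the PgrKO response reached 1 log2 unit in the F/F direction, both PgrKO_Diff libraries lay beyond both PgrKO_Con libraries, and the difference did not pass. It was called opposite when the PgrKO response reached 1 log2 unit against the F/F direction without overlap between the libraries. Responses that met no such rule were undetermined. Genes of the cilium were set apart by 10 hand-written lists of 500 symbols, of which 463 were tested. Below, outside the cilium means only absent from these lists. Whether such genes belong to multiciliated cells was not tested.

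Outside the cilium lists, 430 of the 1580 genes called in F/F organoids had lost their response, 74 had kept it and 19 had an opposite one, while 1055 stayed undetermined. Rises and falls were sorted differently. Of 1047 rises, 380 were lost (36.3%), 18 were kept (1.72%) and 18 were opposite. Of 533 falls, 50 were lost (9.38%), 56 were kept (10.5%) and 1 was opposite. Rtn1, a reticulon of the endoplasmic reticulum, and Vwa2, an extracellular matrix protein, had a reduced response, in the F/F direction by at least 1 log2 unit but smaller by the test. In the cilium lists, 177 of 339 rises were lost (52.2%), 20 were opposite and none was kept. When classes were set instead by the share of the F/F response seen in PgrKO, with no test, 1026 genes outside the cilium lists were lost, 123 were kept and 195 were opposite. By that rule 743 of the 1047 rises and 283 of the 533 falls were lost, and 38 rises and 85 falls were kept.

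**Figure D1:**
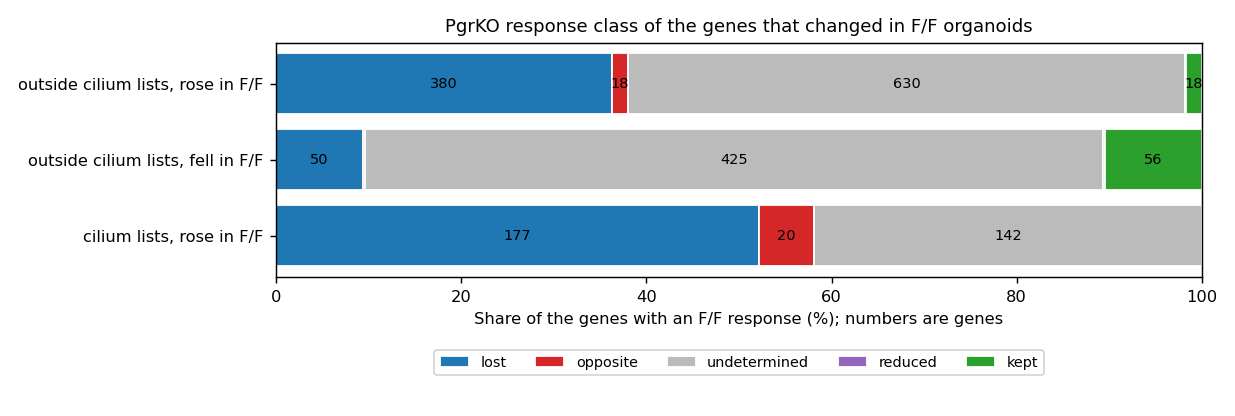
Share of the genes with a called F/F response that fell in each PgrKO response class, for genes outside the cilium lists that rose (1047) or fell (533) in F/F organoids and for cilium list genes that rose (339); numbers in the bars are genes. Kept responses make up 10.5% of the falls and 1.72% of the rises outside the cilium.

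These genes were chosen by their F/F response, and their direction in PgrKO was counted separately for rises and falls. Among the 533 genes outside the cilium that fell in F/F organoids, 433 (81.2%) had a PgrKO response below 0, with a median of −0.32, against 46.1% of all genes outside the cilium. In 253 of them (47.5%), both PgrKO_Diff libraries lay below both PgrKO_Con libraries, as they did in 16.4% of all genes tested. Among the 1047 genes that rose, 378 (36.1%) had a PgrKO response above 0, with a median of −0.12, against 53.2% of all genes outside the cilium. Both PgrKO_Diff libraries lay above both PgrKO_Con libraries in 159 of them (15.2%), against 18.9% of all genes tested. The cilium genes went further. Of 339 that rose in F/F organoids, 18 had a PgrKO response above 0 and the median was −0.51. Over the 463 cilium genes tested, mean log2(FPKM + 1) was 1.92 and 1.98 in PgrKO_Diff and 2.06 and 2.73 in PgrKO_Con. The fall in PgrKO thus came largely from the higher level of PgrKO_Con replicate 2. The correlation of the F/F and PgrKO responses over genes, which share no library but share the gene's level and length, was 0.13 outside the cilium lists and −0.50 within them, and genes are not independent replicates.

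**Figure D2:**
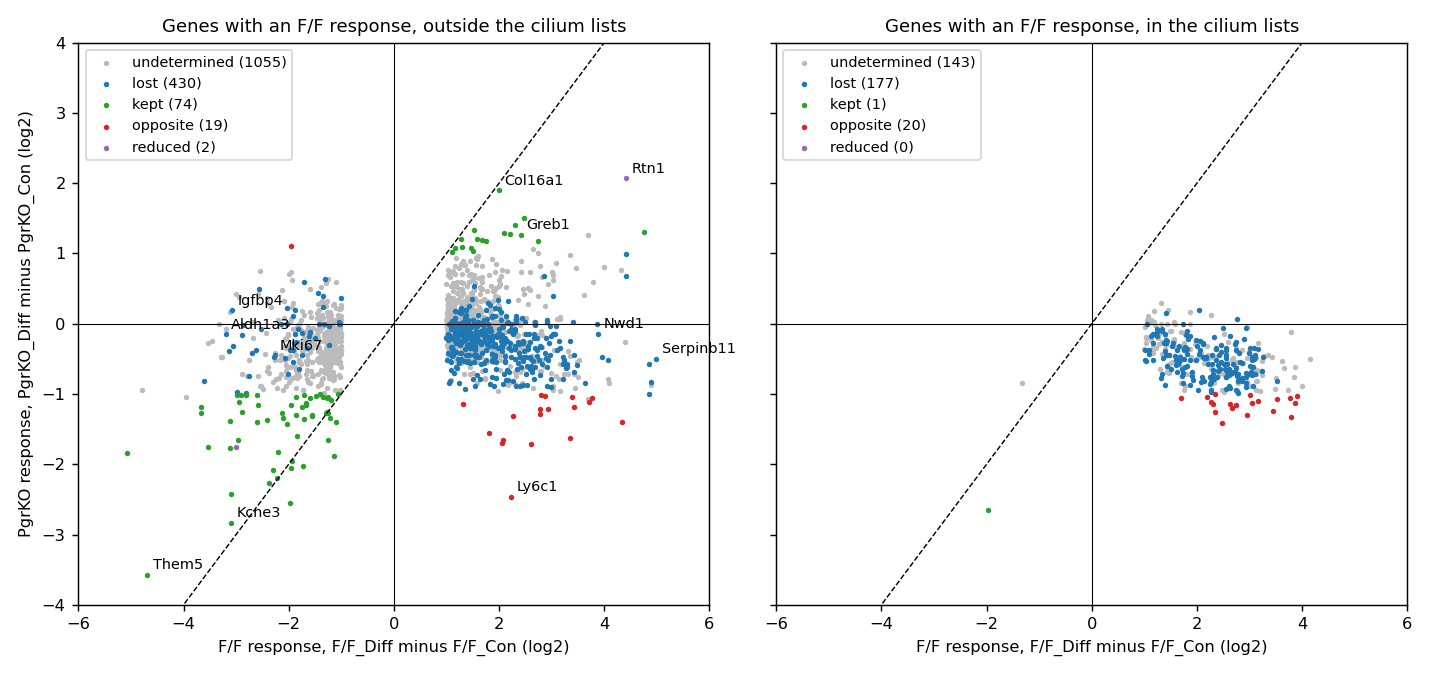
PgrKO response (vertical, log2) against F/F response (horizontal, log2) for each gene with a called F/F response, outside the cilium lists on the left and in them on the right, coloured by class; the dashed line marks equal responses. Falls outside the cilium spread downward toward the line, with Kcne3 beside it, whereas rises lie around or below 0.

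The lost rises outside the cilium had a median F/F response of 1.79 and a median PgrKO response of −0.24. Serpinb11, a serine protease inhibitor, lies on chromosome 1 of mm10 from 107361198 to 107380475. It had 23.7 and 21.9 FPKM in PgrKO_Diff, 32.9 and 32.2 in PgrKO_Con, 92.9 and 242 in F/F_Diff and 6.54 and 2.01 in F/F_Con. The F/F_Diff libraries stood above all the others, and both PgrKO groups lay between the F/F groups. The difference of responses was −5.48 (standard error 0.79, limma adjusted p = 0.0428). Serpina9, another member of the serpin superfamily (chromosome 12, 103994743 to 104013755), had 3.32 and 3.72 FPKM in PgrKO_Diff, 3.19 and 9.64 in PgrKO_Con, 64.1 and 133 in F/F_Diff and 4.08 and 1.06 in F/F_Con. The PgrKO libraries overlapped the F/F_Con libraries, and the difference was −5.42 (standard error 0.88, limma adjusted p = 0.0428).

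In the next 3 genes of this class the F/F_Diff libraries again stood apart. Nwd1, which encodes a protein with NACHT and WD-repeat domains (chromosome 8, 72646711 to 72717876), had 1.23 and 1.98 FPKM in PgrKO_Diff, 1.3 and 2.49 in PgrKO_Con, 19.6 and 25.6 in F/F_Diff and 0.875 and 0.323 in F/F_Con, a difference of −4.03. Cidea, a protein of lipid droplets, had 3.6 and 3.14 FPKM in PgrKO_Diff, 4.54 and 6.07 in PgrKO_Con, 39.4 and 79.8 in F/F_Diff and 5.16 and 0.841 in F/F_Con, a difference of −4.60. Vpreb3, known from the precursor B-cell receptor, had 2.12 and 2.38 FPKM in PgrKO_Diff, 3.03 and 7.38 in PgrKO_Con, 37.6 and 52.7 in F/F_Diff and 5.46 and 1.09 in F/F_Con, a difference of −4.47. The PgrKO libraries of Cidea and Vpreb3 overlapped F/F_Con, and those of Nwd1 lay between the F/F groups. Fam166b, a gene of the cilium lists, had a pattern much like that of Vpreb3. It read 2.51 and 2.47 FPKM in PgrKO_Diff, 3.44 and 7.47 in PgrKO_Con, 60.1 and 60.5 in F/F_Diff and 8.66 and 1.93 in F/F_Con. Slc2a12, the glucose transporter GLUT12, had 6.89 and 4.17 FPKM in PgrKO_Diff, 11.9 and 8.36 in PgrKO_Con, 14.5 and 24 in F/F_Diff and 1.91 and 0.528 in F/F_Con, so the PgrKO libraries lay between the F/F groups, and its difference was −4.01.

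Of 23 tested genes of prostaglandin synthesis and breakdown, 4 passed the test below 0 (17.4%, against 3.91% of all genes) and none above. The list as a whole did not lean that way, with 10 differences below 0 and 13 above, a median of 0.23, and 5 genes on each side at an unadjusted p under 0.05. Pla2g10, a secreted phospholipase that frees arachidonic acid, had 0.417 and 0.397 FPKM in PgrKO_Diff, 0.561 and 1.36 in PgrKO_Con, 12.4 and 16.3 in F/F_Diff and 0.669 and 0.192 in F/F_Con. Both PgrKO groups overlapped F/F_Con, with PgrKO_Diff below PgrKO_Con, and the difference was −3.88 (standard error 0.39, limma adjusted p = 0.0428). Hpgd, the dehydrogenase that inactivates prostaglandins, had 5.26 and 4.61 FPKM in PgrKO_Diff, 7.52 and 11.1 in PgrKO_Con, 6.74 and 6.37 in F/F_Diff and 1.03 and 0.9 in F/F_Con. Here PgrKO_Con was already above F/F_Diff, and the difference was −2.72 (standard error 0.28, limma adjusted p = 0.0428). Hpgds, a prostaglandin D2 synthase, had a difference of −3.43 from a PgrKO level of 67.7 and 41.6 FPKM in Diff and 33.6 and 20.4 in Con, against 40.4 and 71.9 in F/F_Diff and 1.9 and 1.28 in F/F_Con. Ptges3, a chaperone cofactor also described as a prostaglandin E synthase, had a difference of −1.10.

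Genes of other lists also passed below 0, with 1 of 39 in ion and water transport, 1 of 22 in desmosomes and keratins, 2 of 22 in synapse and vesicle release and 2 of 57 in detoxification (2.56%, 4.55%, 9.09% and 3.51%, against 3.91% of all genes). Fxyd4, a regulator of the sodium pump, had 0.16 and 0.174 FPKM in PgrKO_Diff, 0.682 and 0.756 in PgrKO_Con, 7.86 and 5.61 in F/F_Diff and 1.66 and 1.07 in F/F_Con. The groups did not overlap, with PgrKO_Diff lowest, and the difference was −2.26 (standard error 0.30, limma adjusted p = 0.0428). Krt80, an epithelial keratin, had a difference of −2.50, Syt5, a synaptotagmin of vesicle release, had −3.20, and Sfrp1, a secreted WNT antagonist, had −1.83. Of the detoxification genes, Aldh3b1, an aldehyde dehydrogenase, had −2.93 and Gstm6, a glutathione transferase, had −1.56. Vim, an intermediate filament gene placed in the fibroblast and matrix list, rose in F/F organoids, to 46.9 and 63.6 FPKM in F/F_Diff against 4.88 and 7 in F/F_Con. In PgrKO organoids Vim had 50.8 and 50.3 FPKM in PgrKO_Diff and 80.9 and 38.7 in PgrKO_Con, a difference of −3.17. Fibroblast and matrix markers were above the F/F level in these PgrKO libraries, and their part in the Vim levels was not tested.

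**Figure D3:**
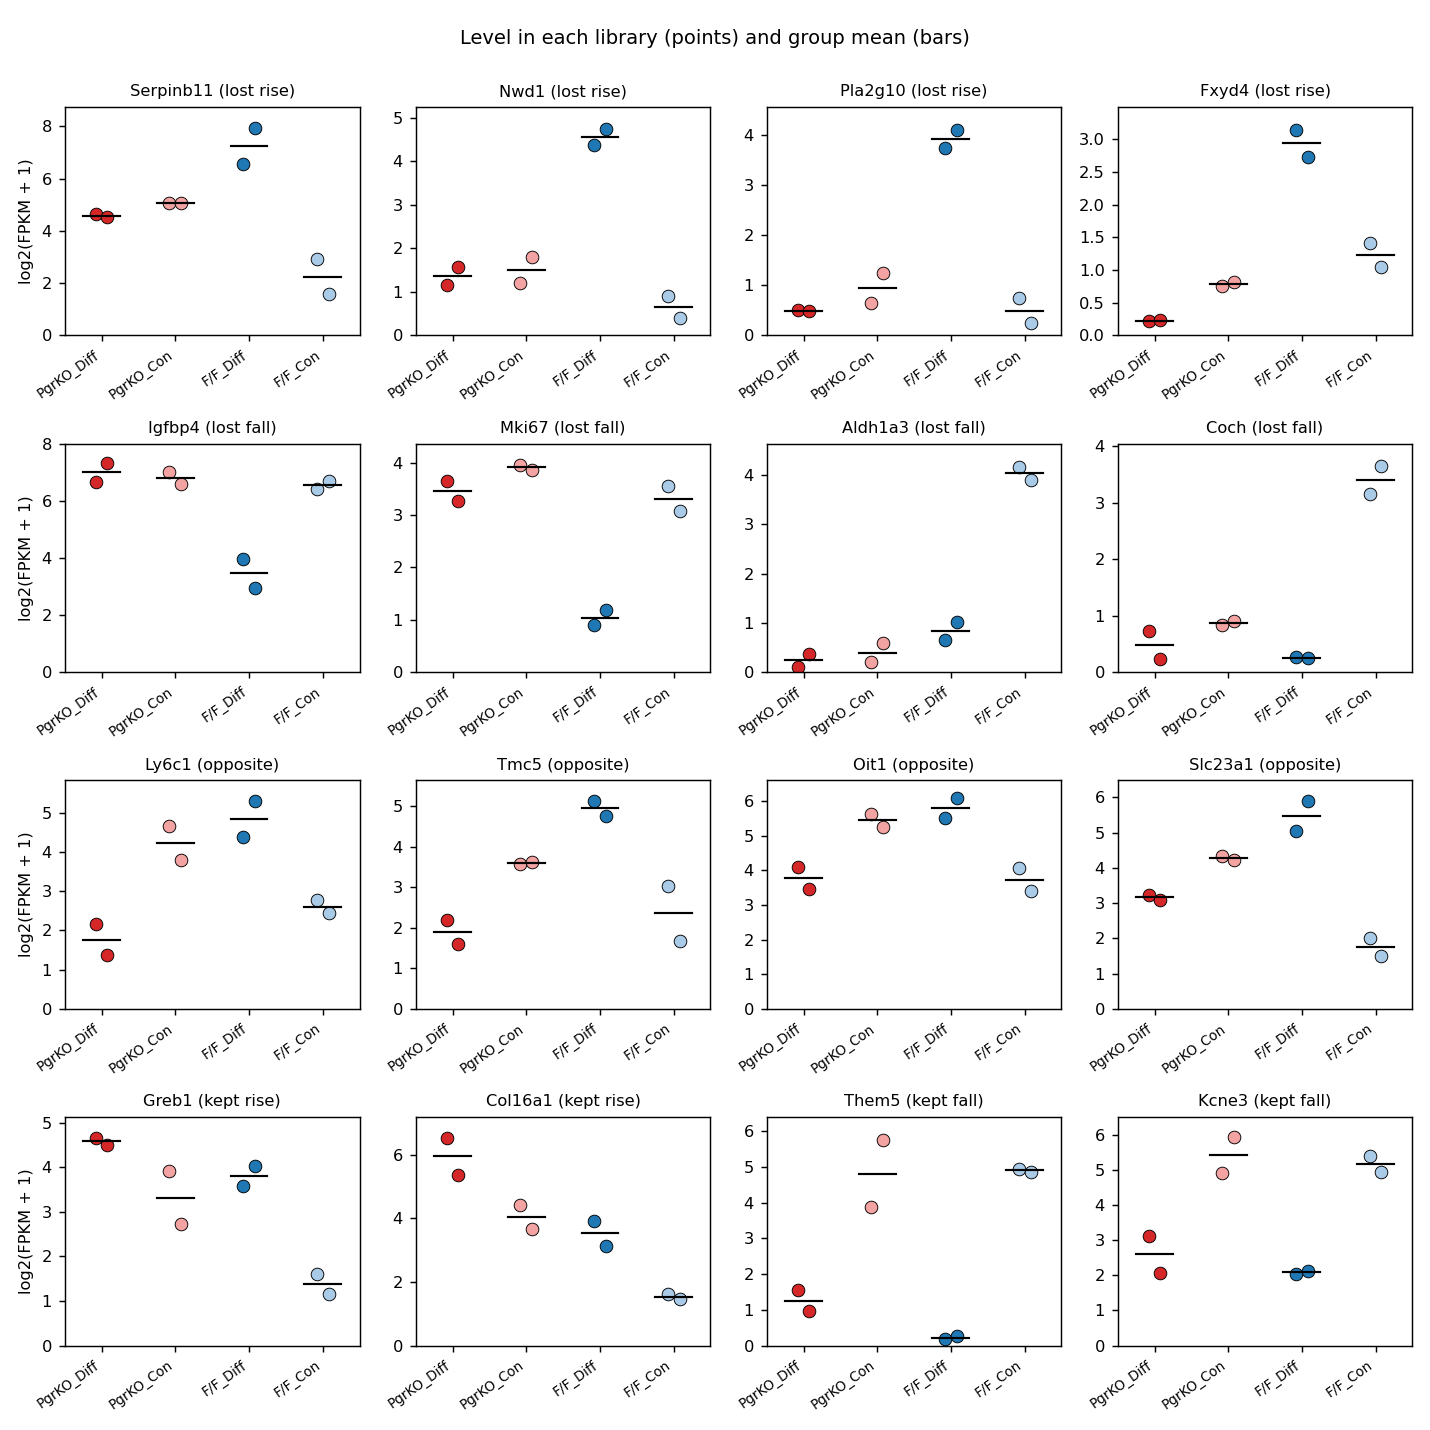
Level of 16 named genes in log2(FPKM + 1) in each library (points) with the group mean (bars), for PgrKO_Diff, PgrKO_Con, F/F_Diff and F/F_Con from left to right; rows show lost rises, lost falls, opposite responses and kept responses. Igfbp4 and Mki67 stay high in PgrKO_Diff, whereas Aldh1a3 and Coch are low in both PgrKO groups.

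The lost falls outside the cilium, 50 genes with a median F/F response of −1.90 and a median PgrKO response of −0.15, were reached from 2 starting points. To describe this, each PgrKO group mean was placed on a line on which F/F_Con is 0 and F/F_Diff is 1. The measure was chosen after values were seen, and F/F_Con enters both ends of it. In 26 of the 50 genes both PgrKO groups lay nearer to F/F_Con, and in 18 (36%) both lay nearer to F/F_Diff, so that PgrKO organoids had the low level before differentiation. Of the 380 lost rises, 361 (95%) lay on the F/F_Con side of the midpoint in both PgrKO groups and 7 (1.84%) on the F/F_Diff side in both. The 361 include genes below F/F_Con itself, such as Fxyd4, with positions of −0.26 in PgrKO_Con and −0.59 in PgrKO_Diff.

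Igfbp4, a secreted binding protein of insulin-like growth factors (chromosome 11, 99041244 to 99054392), is of the first kind. It had 100.3 and 160.4 FPKM in PgrKO_Diff, 128 and 96.5 in PgrKO_Con, 14.8 and 6.74 in F/F_Diff and 83.8 and 102 in F/F_Con. The PgrKO groups overlapped each other and F/F_Con, and the difference of responses was 3.27 (standard error 0.55, limma adjusted p = 0.0444). Igfbp4 was the 1 gene of 29 tested in the estrogen response list that passed (3.45%, against 0.499% of all genes above 0 and 3.91% below). In the single AdKO libraries Igfbp4 read 2.71 FPKM in AdKO_Diff and 18 in AdKO_Con. Fibroblast and matrix markers summed to 395 and 1331 FPKM in PgrKO_Diff and 554 and 651 in PgrKO_Con. The sums were 179.7 and 127 in F/F_Diff, 380.4 and 357 in F/F_Con, 78.5 in AdKO_Diff and 83 in AdKO_Con. Their part in the Igfbp4 levels was not tested. Mgst1, a membrane glutathione transferase, likewise had 98.5 and 81 FPKM in PgrKO_Diff and 89.9 and 88.9 in PgrKO_Con, against 31.6 and 40.6 in F/F_Diff and 91.1 and 105 in F/F_Con. Its PgrKO response was −0.00 and the difference was 1.42 (standard error 0.25, limma adjusted p = 0.0456). Acsl4, which activates arachidonic acid, had 58.3 and 69.2 FPKM in PgrKO_Diff, 85.9 and 68.1 in PgrKO_Con, 32.7 and 25.6 in F/F_Diff and 100.2 and 118 in F/F_Con, a difference of 1.61.

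Mki67 and Aurkb, genes of dividing cells, belong to this first kind too. Mki67, the Ki-67 antigen of cycling cells, had 11.5 and 8.63 FPKM in PgrKO_Diff, 14.6 and 13.5 in PgrKO_Con, 0.863 and 1.27 in F/F_Diff and 10.7 and 7.4 in F/F_Con. PgrKO_Diff lay with F/F_Con, and the difference was 1.81 (standard error 0.31, limma adjusted p = 0.0449). Aurkb, the kinase of the chromosomal passenger complex, had 4.94 and 4.55 FPKM in PgrKO_Diff, 7.32 and 5.6 in PgrKO_Con, 0.766 and 0.963 in F/F_Diff and 6.5 and 5.49 in F/F_Con, a difference of 1.54. Ckap2, a protein of the mitotic spindle, had 5.06 and 4.73 FPKM in PgrKO_Diff, 8.28 and 8.09 in PgrKO_Con, 2.19 and 2.17 in F/F_Diff and 9.92 and 10.2 in F/F_Con. Its difference was 1.16 (standard error 0.16, limma adjusted p = 0.0428), and PgrKO_Diff lay between the F/F groups. Together with Nusap1, a spindle microtubule protein with a difference of 1.62, these 4 were the mitosis genes that passed, of 48 tested (8.33%, against 0.499% of all genes). Of all 48, 40 had a difference above 0, against 8769 of all 15816 genes. The list's median difference was 0.61, from median responses of −0.40 in PgrKO and −1.01 in F/F. Of 40 genes of DNA replication and S phase, none passed by limma, 6 had an unadjusted p under 0.05 (22.6% of all genes did) and 34 had a difference above 0, with a median of 0.47. Pold1, the catalytic subunit of DNA polymerase δ, had 1.31 at an adjusted p of 0.0541 by limma.

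The second kind of lost fall had little left to lose. Aldh1a3, which makes retinoic acid from retinaldehyde (chromosome 7, 66390890 to 66427517), had 0.0816 and 0.296 FPKM in PgrKO_Diff, 0.152 and 0.504 in PgrKO_Con, 0.563 and 1.03 in F/F_Diff and 17 and 13.9 in F/F_Con. Both PgrKO groups were below the F/F_Diff libraries, and the difference of responses was 3.05 (standard error 0.33, limma adjusted p = 0.0428). The single AdKO libraries read 0.603 FPKM in AdKO_Diff and 0.555 in AdKO_Con. Coch, which encodes the matrix protein cochlin (chromosome 12, 51593341 to 51605771), had 0.649 and 0.171 FPKM in PgrKO_Diff, 0.774 and 0.869 in PgrKO_Con, 0.205 and 0.185 in F/F_Diff and 7.86 and 11.5 in F/F_Con, a difference of 2.75. Phox2a, a homeobox transcription factor of autonomic neurons, was listed at 0 in both PgrKO_Diff libraries and had 0.0345 and 0 FPKM in PgrKO_Con, 0.302 and 0 in F/F_Diff and 5.68 and 9.22 in F/F_Con, a difference of 2.83. In these 3 genes only the F/F_Con libraries were high.

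Other lost falls included Scara3. Scara3, a scavenger receptor protein, had 5.6 and 4.94 FPKM in PgrKO_Diff, 8.58 and 11.7 in PgrKO_Con, 6.46 and 2.4 in F/F_Diff and 54.1 and 67.2 in F/F_Con, a difference of 2.79. Rhoj, a small GTPase closely related to CDC42, had 3.03 and 4.25 FPKM in PgrKO_Diff, 3.73 and 5.98 in PgrKO_Con, 3.8 and 1.43 in F/F_Diff and 27.3 and 27.3 in F/F_Con. It was the 1 gene of 45 tested among CDC42 effectors and regulators that passed (2.22%, against 0.499% of all genes above 0), with a difference of 2.73 (standard error 0.51, limma adjusted p = 0.0464), and the list's median was 0.15. Nrgn, the calmodulin-binding protein neurogranin, had 1.99 and 5.52 FPKM in PgrKO_Diff, 2.03 and 2.23 in PgrKO_Con, 0.424 and 0.297 in F/F_Diff and 7.34 and 6.8 in F/F_Con, a difference of 3.07 with the PgrKO libraries in between. Atp6v1b1, a proton pump subunit of acid-secreting cells, had a difference of 2.27, Lgr5, a receptor for R-spondins and a marker of stem cells, had 1.80, and Wfdc1, a secreted protein with a whey acidic domain, had 2.01. Gpx2, a glutathione peroxidase, fell in F/F organoids to 9.3 and 10.3 FPKM in F/F_Diff against 48.2 and 37.8 in F/F_Con, and had 78.3 and 64.8 in PgrKO_Diff against 120.5 and 114 in PgrKO_Con, a difference of 1.31.

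**Figure D4:**
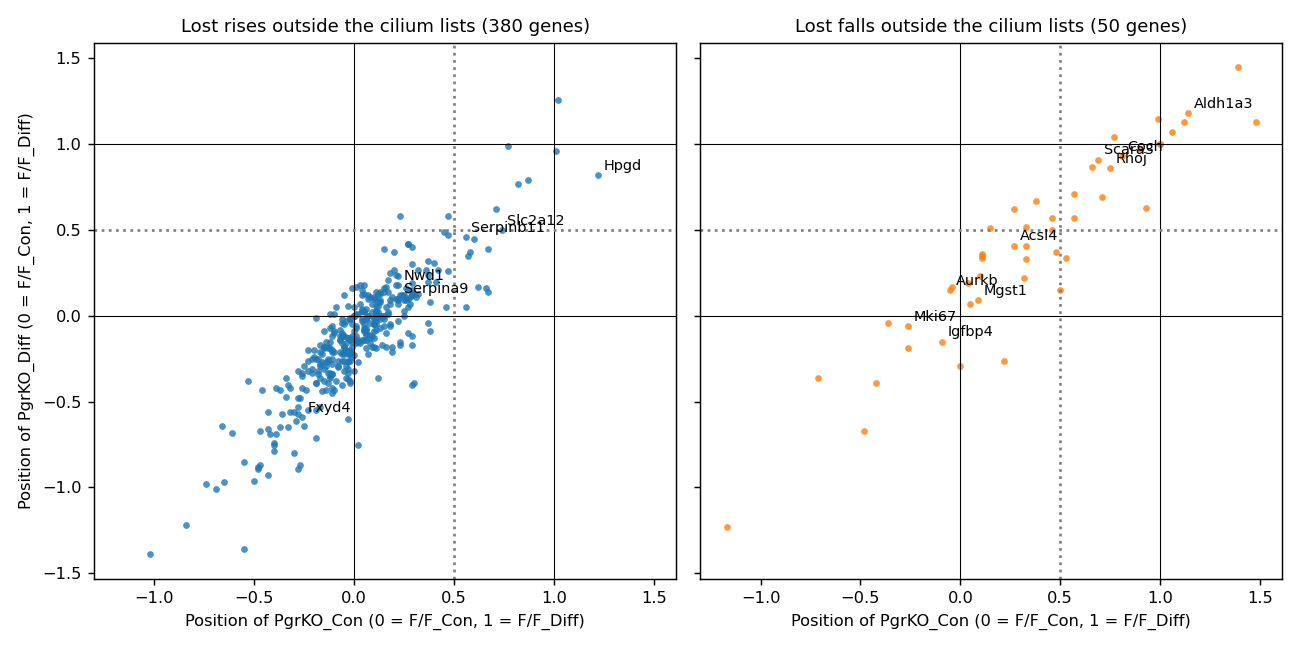
Position of PgrKO_Con (horizontal) and PgrKO_Diff (vertical) between F/F_Con (0) and F/F_Diff (1) for the 380 lost rises and the 50 lost falls outside the cilium lists; dotted lines mark the midpoint. Most rises lie below the midpoint on both axes, whereas the falls run along the diagonal, with 26 below the midpoint and 18 above it on both axes.

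Among the genes that passed without a called F/F response were Acly and Tnfrsf10b, whose F/F responses were under 1 log2 unit. Acly, which makes cytosolic acetyl-CoA for lipid synthesis, had a difference of 0.96 with responses of 0.26 in PgrKO and −0.70 in F/F. Of 25 genes tested in the cholesterol synthesis list, 22 had a difference above 0, against 8769 of all 15816 genes. The list's median difference was 0.67, from median responses of 0.39 in PgrKO and −0.38 in F/F. Mean levels of this list, in log2(FPKM + 1), were 4.86 and 4.92 in PgrKO_Diff, 4.59 and 4.41 in PgrKO_Con, 3.27 and 3.66 in F/F_Diff and 3.86 and 3.75 in F/F_Con, with no overlap between the PgrKO and F/F groups. Tnfrsf10b, the death receptor DR5 and a p53 target, had a difference of 1.08.

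Opposite responses outside the cilium, 19 genes in all, were 18 rises and 1 fall in F/F organoids. In 12 of the 18 rises both PgrKO groups lay nearer to F/F_Con, and in 6 PgrKO_Con lay nearer to F/F_Diff and PgrKO_Diff nearer to F/F_Con. Ly6c1, a GPI-anchored surface antigen (chromosome 15, 75044018 to 75048830), had 3.48 and 1.58 FPKM in PgrKO_Diff, 24.3 and 12.9 in PgrKO_Con, 19.7 and 38.3 in F/F_Diff and 5.83 and 4.39 in F/F_Con. The order of the 2 conditions was reversed between the genotypes without overlap, with responses of −2.46 in PgrKO and 2.23 in F/F and a difference of −4.70 (standard error 0.64, limma adjusted p = 0.0428). Ly6c1 shares much of its sequence with neighbouring Ly6 genes, and how reads were divided among them is not stated. Ly6c1 is also known from endothelial cells and leukocytes. The sum over 13 endothelial markers was 12.6 and 44.6 FPKM in PgrKO_Diff, 49.6 and 51.2 in PgrKO_Con, 15.2 and 26.7 in F/F_Diff and 5.65 and 4.28 in F/F_Con, with 0 of 13 at 0 in every PgrKO library, and its part in the Ly6c1 result was not tested.

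Of the secretory and ion transport lists, 1 of 27 and 0 of 39 tested genes were opposite, against 39 of all 15816 genes. Oit1, a secreted protein of the oviduct list, had 16.3 and 10.1 FPKM in PgrKO_Diff, 48.7 and 37.4 in PgrKO_Con, 44.6 and 67.3 in F/F_Diff and 15.8 and 9.56 in F/F_Con. PgrKO_Diff thus had the level of F/F_Con and PgrKO_Con that of F/F_Diff, a difference of −3.72 (standard error 0.49, limma adjusted p = 0.0428). Tmc5, a transmembrane channel-like protein (chromosome 7, 118597297 to 118675086), had 3.54 and 2.02 FPKM in PgrKO_Diff, 10.9 and 11.4 in PgrKO_Con, 34.3 and 26.2 in F/F_Diff and 7.22 and 2.18 in F/F_Con, a difference of −4.31. Slc23a1, the sodium-dependent vitamin C transporter, had 8.38 and 7.51 FPKM in PgrKO_Diff, 19.1 and 17.8 in PgrKO_Con, 32.2 and 58.5 in F/F_Diff and 3 and 1.85 in F/F_Con. Its 4 groups did not overlap, and the difference was −4.84 (standard error 0.42, limma adjusted p = 0.0428). Efcab10, which encodes an EF-hand protein and stands in none of the cilium lists, had a difference of −4.15. Sftpc, the surfactant protein C gene, and Ldlrad1, a membrane protein, had −4.96 and −4.59, and neither passed (limma adjusted p = 0.0687 and 0.0749).

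Genes of the interferon response passed in both directions. Usp18, which removes the ubiquitin-like ISG15 from proteins, had 1.96 and 1.22 FPKM in PgrKO_Diff, 7.96 and 5.33 in PgrKO_Con, 12.2 and 7.95 in F/F_Diff and 3.84 and 1.01 in F/F_Con, an opposite response with a difference of −3.36. Lgals3bp, a secreted glycoprotein that binds galectin-3, had 61.7 and 84.9 FPKM in PgrKO_Diff, 143 and 181 in PgrKO_Con, 289.8 and 272 in F/F_Diff and 145 and 86.2 in F/F_Con, a difference of −2.46. Ifi27l2a went the other way, with 7.87 and 11.2 FPKM in PgrKO_Diff, 17.2 and 22.1 in PgrKO_Con, 0.295 and 0.133 in F/F_Diff and 7.12 and 10.4 in F/F_Con, a difference of 2.02. Of 43 genes tested, 2 passed below 0 (4.65%, against 3.91% of all genes) and 1 above (2.33%, against 0.499%). At an unadjusted p under 0.05 there were 11 below 0 and 1 above. In the whole list 28 differences were below 0, against 7014 of all 15816 genes, and 15 above, and the median was −0.39. The interferon-induced genes with kept falls were Isg15, with responses of −1.26 in PgrKO and −1.27 in F/F, Oas2, with −1.88 and −1.14, and Zbp1, with −1.65 and −1.26. A kept response was found for 3 of the 43 genes of this list and for 75 of all 15816 genes. The list's mean level was 2.53 in both PgrKO_Diff libraries and 3.40 and 3.27 in PgrKO_Con, and 2.05 and 2.09 in F/F_Diff against 2.54 and 2.23 in F/F_Con.

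The remaining opposite gene with an F/F fall was a small nucleolar RNA, Snora69, with 1.44 and 1.95 FPKM in PgrKO_Diff, 0 and 0.538 in PgrKO_Con, 0 in both F/F_Diff libraries and 2.99 and 2.75 in F/F_Con. Short RNAs are poorly sampled by such libraries. In all, 3 genes had a called difference and no F/F call together with a PgrKO response of at least 1 log2 unit without overlap. Gm23388 and Gm25518 were listed at 0 in all F/F libraries and in PgrKO_Con and read 2.2 and 1.5 FPKM and 1.76 and 1.6 FPKM in PgrKO_Diff, and 2310040G24Rik read 0.729 and 0.11 FPKM in PgrKO_Diff against 1.81 and 1.91 in PgrKO_Con.

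Kept falls were the larger group of shared responses. Them5, a mitochondrial acyl-CoA thioesterase (chromosome 3, 94342099 to 94347352), had 1.92 and 0.942 FPKM in PgrKO_Diff, 13.7 and 53.2 in PgrKO_Con, 0.133 and 0.2 in F/F_Diff and 30.1 and 28.1 in F/F_Con. Con and Diff did not overlap in either genotype, with responses of −3.57 in PgrKO and −4.69 in F/F and a difference of 1.12 (standard error 0.82, limma adjusted p = 0.473). Kcne3, an auxiliary subunit of potassium channels (chromosome 7, 100176502 to 100184869), had 7.8 and 3.21 FPKM in PgrKO_Diff, 29.3 and 60.9 in PgrKO_Con, 3.11 and 3.4 in F/F_Diff and 41.7 and 29.9 in F/F_Con. Its responses were −2.83 in PgrKO and −3.09 in F/F, and the difference was 0.26 (standard error 0.65). Arnt2, a bHLH-PAS transcription factor, had 5.32 and 2.06 FPKM in PgrKO_Diff, 27.2 and 15.1 in PgrKO_Con, 2.07 and 4.6 in F/F_Diff and 19.9 and 21 in F/F_Con, a difference of 0.10 (standard error 0.66). In these 3 genes the levels of the genotypes overlapped in Con.

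Spp1, which encodes the secreted phosphoprotein osteopontin, started from a higher level in PgrKO. It had 337 and 183 FPKM in PgrKO_Diff, 2839 and 629.8 in PgrKO_Con, 34.7 and 46.7 in F/F_Diff and 435 and 288 in F/F_Con. Its responses were −2.42 in PgrKO and −3.10 in F/F, and the standard error of the difference, 1.03, was larger than the difference of 0.68. Kept falls also included Trpv6, an epithelial calcium channel, with responses of −2.55 in PgrKO and −1.98 in F/F, and Ccnd1, the G1 cyclin D1 of the estrogen response list, with −1.05 and −1.27. H2-Q6 and H2-Q7, class Ib antigen-presenting genes that resemble each other closely, had kept falls, whereas their neighbour H2-Q4 passed with a difference of 1.30. Reads shared among these copies make their separation uncertain. Of 20 tested genes of antigen presentation, 17 had a difference above 0, against 8769 of all 15816 genes. The list's median difference was 0.81, with median responses of −0.23 in PgrKO and −1.01 in F/F. A kept call says that the difference missed the threshold, and with a standard error of 0.5 or more it does not show that the responses were equal.

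Kept rises numbered 18. Greb1, which estrogen induces through its receptor and whose product joins that receptor's complex (chromosome 12, 16670615 to 16800886), had 24.2 and 21.6 FPKM in PgrKO_Diff, 14 and 5.57 in PgrKO_Con, 10.9 and 15.3 in F/F_Diff and 2.06 and 1.21 in F/F_Con. The PgrKO responses started from a higher level, and the values were 1.27 in PgrKO and 2.42 in F/F, with a difference of −1.15 (standard error 0.57, limma adjusted p = 0.3). Pgr, the progesterone receptor and itself an estrogen target, had 54.2 and 20.6 FPKM in PgrKO_Diff, 30.4 and 12 in PgrKO_Con, 7.04 and 15 in F/F_Diff and 5.43 and 6.06 in F/F_Con. Its response passed in neither genotype, at 0.77 in PgrKO and 0.75 in F/F. Col16a1, a fibril-associated collagen (chromosome 4, 130047840 to 130099283), had 90.5 and 40.3 FPKM in PgrKO_Diff, 20.4 and 11.6 in PgrKO_Con, 14.2 and 7.67 in F/F_Diff and 2.04 and 1.73 in F/F_Con, and its responses were 1.90 in PgrKO and 1.99 in F/F. Npr2, the receptor guanylate cyclase for C-type natriuretic peptide, had responses of 1.50 in PgrKO and 2.47 in F/F from 45.8 and 25.3 FPKM in PgrKO_Diff, 19.8 and 6.43 in PgrKO_Con, 12.4 and 13.6 in F/F_Diff and 1.28 and 1.81 in F/F_Con. In Greb1, Col16a1 and Npr2 PgrKO_Con was already above F/F_Con without overlap. On the line between F/F_Con and F/F_Diff, 13 of the 18 kept rises lay nearer to F/F_Diff in both PgrKO groups, as did 16 of the 56 kept falls.

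The other named kept rises were Akr1c14, Mettl7a1 and Dcaf12l1. Akr1c14, a hydroxysteroid dehydrogenase of a family of close copies, had 14.7 and 22.9 FPKM in PgrKO_Diff, 7.03 and 6.59 in PgrKO_Con, 21 and 72.5 in F/F_Diff and 0.604 and 0.379 in F/F_Con, a difference of −3.44 that missed the threshold (limma adjusted p = 0.0611). Mettl7a1, a methyltransferase-like protein of lipid droplets with close copies beside it, had responses of 1.28 in PgrKO and 2.21 in F/F, and Dcaf12l1, an X-linked gene of the DCAF12 family, had 1.34 and 1.53. Rtn1, whose response was reduced, had 92.1 and 69.7 FPKM in PgrKO_Diff, 20.8 and 16.2 in PgrKO_Con, 18.5 and 36.1 in F/F_Diff and 0.168 and 0.362 in F/F_Con, with responses of 2.07 in PgrKO and 4.42 in F/F. Vwa2 had 0.527 and 0.358 FPKM in PgrKO_Diff, 3.77 and 4.02 in PgrKO_Con, 0.304 and 0.426 in F/F_Diff and 9.16 and 10.8 in F/F_Con, a difference of 1.24 (standard error 0.22, limma adjusted p = 0.0459). In both genes the genotypes differed most before differentiation.

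Ovgp1, the oviduct-specific glycoprotein of secretory cells, had 3403 and 1856 FPKM in PgrKO_Diff, 2169.7 and 1018 in PgrKO_Con, 1345 and 3822 in F/F_Diff and 91.9 and 141 in F/F_Con. Both PgrKO groups overlapped F/F_Diff, and the difference of responses, −3.55 (standard error 0.93), did not pass (limma adjusted p = 0.0888). Of 27 tested secretory products, Oit1 passed below 0 (3.7%, against 3.91% of all genes) and Wfdc1 above (3.7%, against 0.499%). No Notch ligand, receptor or target of 23 tested passed by limma, and 11 had an unadjusted p under 0.05 (22.6% of all genes did). A difference above 0 was found for 15 of the 23, against 8769 of all 15816 genes, and the list's median was 0.39. Hes1, a Notch-induced repressor, had 33.3 and 20.8 FPKM in PgrKO_Diff, 30.8 and 28.4 in PgrKO_Con, 22.9 and 26.4 in F/F_Diff and 45.5 and 65.9 in F/F_Con, a difference of 0.97 at an adjusted p of 0.203 by limma. Notch1 had 4.07 and 2.1 FPKM in PgrKO_Diff, 5.81 and 3.87 in PgrKO_Con, 1.2 and 2.04 in F/F_Diff and 5.36 and 5.21 in F/F_Con, a difference of 0.74. Dtx1, a ubiquitin ligase induced by Notch, and Nfix, a nuclear factor I gene, came nearest to the threshold, with differences of −2.24 and 1.10 (limma adjusted p = 0.0578 and 0.0613). Dtx1 rose in F/F organoids although Notch was blocked, with responses of −0.01 in PgrKO and 2.22 in F/F. Nfix had −0.10 in PgrKO and −1.20 in F/F.

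**Figure D5:**
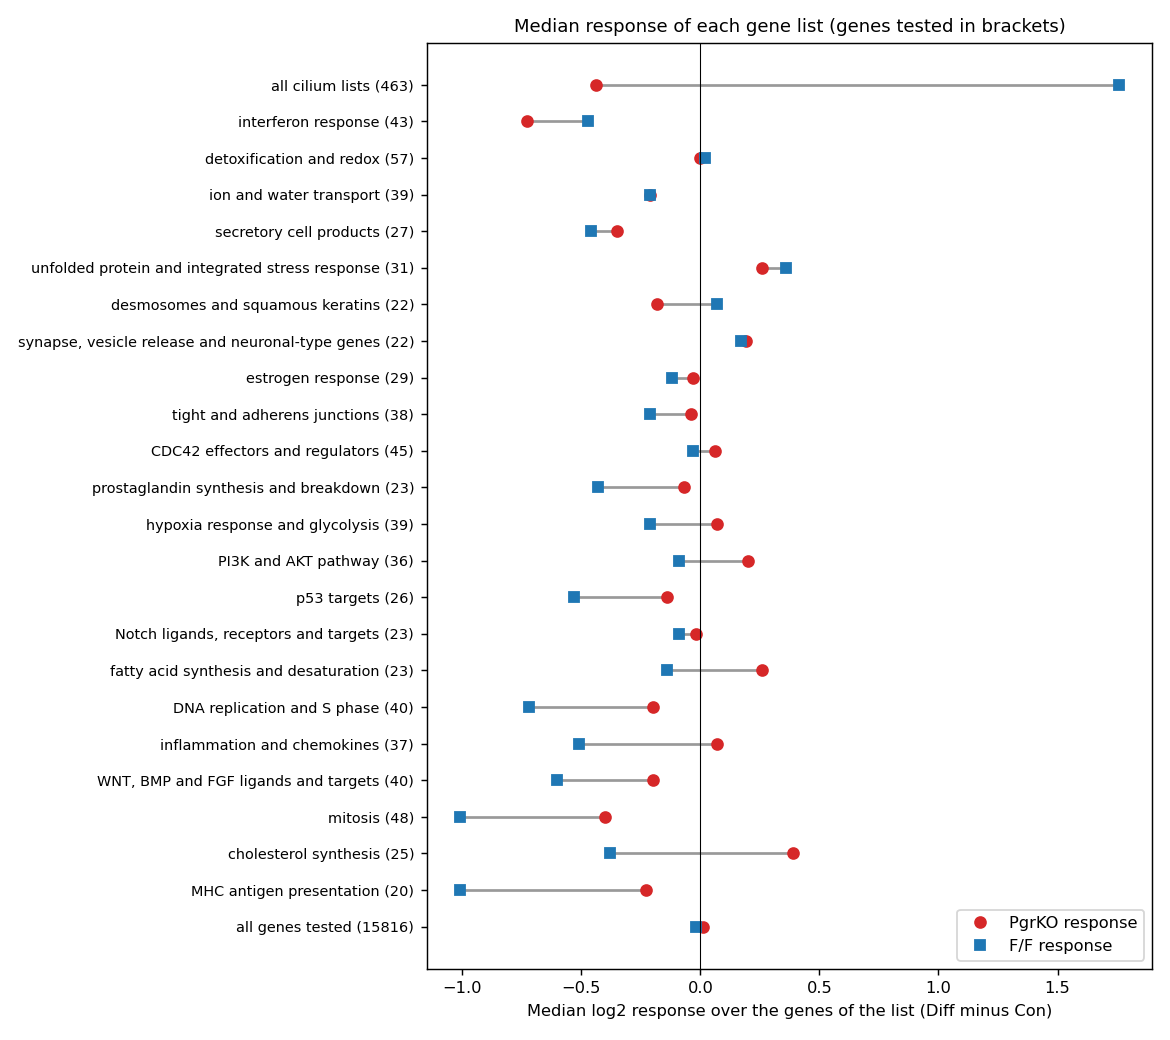
Median log2 response in PgrKO (circles) and F/F (squares) over the tested genes of each list, ordered by the median difference of responses, with all cilium lists at the top and all genes at the bottom. The cell type marker lists are not drawn. Among them, fibroblast and matrix markers had a median difference of 1.19, wider than the gaps above 0 drawn here, and endothelial markers had −0.90. Cilium genes have medians of −0.44 in PgrKO and 1.76 in F/F. Among the lists drawn, the widest gaps the other way are in antigen presentation, cholesterol synthesis and mitosis.

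Lists of stress, oxygen and signaling genes had few or no members that passed. Of 39 genes of hypoxia and glycolysis, 37 of inflammation, 36 of the PI3K and AKT pathway, 38 of tight and adherens junctions and 31 of the unfolded protein response, limma passed 0, with 9, 8, 9, 5 and 0 at an unadjusted p under 0.05, which 22.6% of all genes had. Their median differences were 0.23, 0.53, 0.25, 0.14 and −0.10, against 0.07 over all genes. Egln3, an oxygen-sensing prolyl hydroxylase, had 19.4 and 11.2 FPKM in PgrKO_Diff, 17.3 and 9.63 in PgrKO_Con, 85 and 54.1 in F/F_Diff and 236 and 223 in F/F_Con, a difference of 1.92 (limma adjusted p = 0.0977). Ptgs2, the inducible cyclooxygenase, had 4.88 and 12.3 FPKM in PgrKO_Diff, 4.59 and 7.4 in PgrKO_Con, 1.28 and 0.727 in F/F_Diff and 8.54 and 10.6 in F/F_Con, a difference of 2.77 that missed the threshold (limma adjusted p = 0.0563). Irs1, an adaptor of insulin signaling, and Rictor, a subunit of mTOR complex 2, were the PI3K and AKT genes with the smallest p, at −1.45 and 0.66 (limma adjusted p = 0.0933 and 0.103). Of 40 WNT, BMP and FGF genes, Lgr5 passed above 0 (2.5%, against 0.499% of all genes) and Sfrp1 below (2.5%, against 3.91%), with a median of 0.60.

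Cilium genes carried 191 of the 676 calls, all below 0, out of 463 tested (41.3% passed, against 3.91% of all genes). Their mean level, in log2(FPKM + 1), was 1.92 and 1.98 in PgrKO_Diff, 2.06 and 2.73 in PgrKO_Con, 4.36 and 4.60 in F/F_Diff and 2.92 and 2.47 in F/F_Con. Called differences ran from −4.68 for Tmem212, a membrane protein of multiciliated cells, and −4.34 for Fam166b to −1.17 for Mks1 and −1.05 for Kif3a. Mks1 acts in the transition zone of primary and motile cilia, and Kif3a is a subunit of the kinesin of intraflagellar transport. The lists differed in size of effect, with medians of −3.09 for nexin links, −3.07 for inner dynein arms and −3.06 for radial spokes and the central pair, against −1.58 for intraflagellar transport, −1.30 for the BBSome and transition zone and −0.92 for centrioles and deuterosomes. Of 16 tested regulators of multiciliogenesis, Rfx3, Foxn4 and Ankrd45 passed, with differences of −2.11, −3.21 and −2.86. The list's median was −2.10. By limma, 10 of the 16 were below 0 and 2 above at an unadjusted p under 0.05, which 22.6% of all genes had in either direction. Only 2 listed genes fell in F/F organoids, 5330417C22Rik and Ces1d, and the first of them had the one kept response of the cilium lists.

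The promoters of lost genes were read for 3 short motifs, because the RFX factors of multiciliogenesis, the Notch effector RBPJ and the estrogen receptor bind them. Promoter sequence, from 250 bases before to 50 after a start, was taken from RefSeq (GRCm38.p6) and covered 10876 of the genes tested by symbol. The core of the RFX X-box, GTTGCCA on either strand, was present in 10.4% of 251 lost rises outside the cilium lists, in 21.2% of 146 lost rises within them and in 4.91% of all genes. Rises that stayed undetermined had nearly the same shares, 9.18% of 403 outside the cilium lists and 21.1% of 114 within them. It stood in 5.41% of 37 lost falls, 2.38% of 42 kept falls and 7.69% of 13 kept rises. The RBPJ site GTGGGAA was present in 8.37% of lost rises outside the cilium, 2.7% of lost falls and 11.9% of kept falls, against 7.31% of all genes. The palindromic estrogen response element was present in 2 promoters of all genes, 1 of them a lost rise outside the cilium lists. So rare a motif cannot be judged by its absence from 13 kept rises.

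The complete palindromic X-box was rare, in 0.68% of all promoters, 3.42% of lost cilium rises and 1.2% of lost rises outside the lists. It was in 4.39% of undetermined and 5.56% of opposite cilium rises and in 0.744% of undetermined rises outside the lists. The 3 genes outside the lists that held it are shown with 2 cilium genes for comparison, in lower case with the X-box in capitals, 5′ to 3′ along the gene's strand. They were picked for the motif after the classes were known, and a match is a description and not a binding site.
Fndc11, chr2:181219979-181220008, + strand: ggccagtgGTTCCCATGGCAACaagtaggc
Klhdc9, chr1:171360859-171360888, − strand: ggtctcttGTTTCCAAGGTAACaggcgctt
Map9, chr3:82357943-82357972, + strand: ccggtcttGTTTCCTAGGTAACagccattg
Bbs7, chr3:36613489-36613518, − strand: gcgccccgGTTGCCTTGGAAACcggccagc
Mks1, chr11:87853183-87853212, + strand: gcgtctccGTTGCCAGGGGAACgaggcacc

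All 5 genes passed below 0, which their choice had fixed. Mks1 was taken from the called cilium genes and the others from the lost rises. Map9, a microtubule-associated protein, had 1.83 and 2.85 FPKM in PgrKO_Diff, 2.53 and 5.36 in PgrKO_Con, 15.4 and 19.1 in F/F_Diff and 4.24 and 3.69 in F/F_Con, a difference of −2.40. Klhdc9, a kelch-domain gene, had 0.202 and 0.164 FPKM in PgrKO_Diff, 0.541 and 0.904 in PgrKO_Con, 13.6 and 9.34 in F/F_Diff and 3.84 and 3.43 in F/F_Con, a difference of −1.95. Fndc11, a fibronectin-domain gene, had a difference of −1.39. Bbs7, a subunit of the BBSome, and Mks1 had −1.84 and −1.17. When symbols with prefixes common among cilium genes and unnamed Rik genes were also set apart, 376 lost, 71 kept and 16 opposite genes remained outside, with 326 lost rises in place of 380.

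In the single AdKO libraries, most genes called in F/F organoids went the same way but less far. They were chosen for a large F/F response, so a smaller response in other libraries carries no information. Of the 1047 rises outside the cilium, 859 (82%) had an AdKO response above 0, with a median of 0.30, against 378 in PgrKO and 49.1% of all genes outside the cilium in AdKO. Of the 533 falls, 462 (86.7%) had an AdKO response below 0, with a median of −0.50, against 49.3% of all genes outside the cilium. Of the 339 cilium rises, 313 (92.3%) were above 0 in AdKO, with a median of 0.48, against 18 in PgrKO. Among lost genes outside the cilium, 310 of 380 rises and 42 of 50 falls had the F/F sign in AdKO, and 19 and 13 of them reached 1 log2 unit. Igfbp4 and Mki67 were among these, with AdKO responses of −2.35 and −1.19, whereas Aldh1a3 and Pla2g10 had 0.04 and 0.53. Of the kept genes, 17 of 18 rises and 55 of 56 falls had the F/F sign. With 1 library each, these AdKO values have no replicate check.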

How the data were processed

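The deposited table holds FPKM values for 10 organoid libraries, which the authors made, per the submitters' processing notes, using HISAT2, edgeR and the mm10 build. Versions are not given in the sources used here, and the paper's methods name other tools. FPKM multiplied by GENCODE M21 exon length gave whole reads (100.00% within 0.01 read), and the library size implied was 0.92 to 1.06 times the reads recovered, so a scaling factor is present.

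A gene was tested if any of the 6 group means reached 1 FPKM, and 1 repeated symbol was dropped. Values were log2(FPKM + 1), which understates changes of low genes. All 10 libraries were fitted with limma 3.58.1 (R 4.3.3, trended prior variance), and the Benjamini-Hochberg adjustment ran over all genes. Of the table's symbols, 54042 matched 1 gene model. Gene lists were written by hand. Members, classes and lists were chosen with earlier results of these data known. Named genes outside the cilium lists had an official symbol, 5 FPKM in a group and no overlap between F/F groups: per class, those with the largest difference or the largest shared response, plus the 2 members of each role list with the smallest p. Others were named for their role or, where 5 or fewer passed, after their values were seen. Deviations of same-numbered libraries correlated at 0.53 between the PgrKO groups and at −0.17 to −0.04 elsewhere. Since the labels tie no numbers together and the pattern held in the PgrKO groups alone, no block was used in the main model. Alternatives were another pseudocount, filters, scalings, a replicate block, an unmoderated model, leaving out libraries, other thresholds and other class rules. The script was tested on simulated data. Results for 1 gene that the rule would name are not reported here.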

Additional observations from a re-analysis of the deposited data

Results flagged for a closer look

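The difference between Diff and Con differed between PgrKO and F/F organoids, by the interaction term in limma, for 676 genes. All these adjusted p lay between 0.0428 and 0.05. The named genes below passed the same test, though Acly fell short of the size minimum and is not among the 676. Each value is the PgrKO response minus the F/F response on the log2(FPKM + 1) scale.

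Among genes that had risen in F/F organoids, the difference was −5.48 for Serpinb11, −5.42 for Serpina9, −4.60 for Cidea, −4.47 for Vpreb3, −4.03 for Nwd1 and −4.01 for Slc2a12. It was −4.84 for Slc23a1, −4.70 for Ly6c1, −4.31 for Tmc5, −4.15 for Efcab10, −3.72 for Oit1 and −2.46 for Lgals3bp, which were classed as opposite. It was −3.88 for Pla2g10, −3.20 for Syt5, −2.72 for Hpgd, −2.50 for Krt80, −2.35 for Rtn1, −2.26 for Fxyd4 and −1.83 for Sfrp1. In the cilium lists it was −4.68 for Tmem212, −4.34 for Fam166b, −1.17 for Mks1 and −1.05 for Kif3a.

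Among genes that had fallen in F/F organoids, the difference was 3.27 for Igfbp4, 3.07 for Nrgn, 3.05 for Aldh1a3, 2.83 for Phox2a, 2.79 for Scara3, 2.75 for Coch and 2.73 for Rhoj. It was 2.27 for Atp6v1b1, 2.02 for Ifi27l2a, 2.01 for Wfdc1, 1.81 for Mki67, 1.80 for Lgr5, 1.61 for Acsl4, 1.54 for Aurkb, 1.42 for Mgst1, 1.30 for H2-Q4, 1.24 for Vwa2 and 1.16 for Ckap2. Without a called F/F response, the difference was 1.08 for Tnfrsf10b and 0.96 for Acly.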

How the results depend on the processing

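The calls of the response difference depended on the settings. Of the 676 calls, 0 were left with a pseudocount of 0.1, with the replicate block, with a block within genotype (added after seeing the data), with voom on whole reads (also added), at an adjusted p under 0.01 and without replicate 2 of both PgrKO groups. There were 39 with no filter and 11 with an unmoderated model, and 0 to 458 when 1 library was left out. In every one of these fits the genes of the main set that were tested kept their sign. They were chosen for a large difference in these same libraries, so the kept signs are no separate support. Calls of the F/F response were 1254 with no filter, 760 unmoderated, 3055 with no size minimum, 237 at 0.01 and 0 to 1887 with 1 library left out. PgrKO calls were 1 with no filter and 1 unmoderated, and 0 otherwise.

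Lost genes outside the cilium lists numbered 0 under the same settings that left 0 calls, the replicate block among them, 27 with no filter, 9 unmoderated, 1026 by share of the F/F response and 0 to 184 with 1 library left out. Kept genes numbered 159 with a pseudocount of 0.1, 40 with no filter, 17 unmoderated, 10 at 0.01, 123 by share, 173 with voom and 0 to 144 with 1 library left out. Opposite genes numbered 112 with a pseudocount of 0.1, 9 with no filter, 6 unmoderated, 2 at 0.01, 195 by share, 160 with voom and 0 to 98 with 1 library left out. Same-numbered libraries deviated together in the PgrKO groups (correlation 0.53) and not elsewhere, and both the replicate block and the block within genotype, which follows that pattern, left 0 calls. The cause of these shifts was not tested.

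Quantile normalization moved the median difference of all genes to 0.16 and median scaling to 0.14, against 0.07. Differences that changed sign belonged to genes without a call: Pgr, at 0.02, had −0.03 with a pseudocount of 0.1, −0.00 with quantile normalization and −0.06 with voom, and ran between −0.66 and 0.69 with 1 library left out. The same ranges were −0.66 to 0.48 for Col16a1 (0.10 without replicate 2 of both PgrKO groups), −0.43 to 0.62 for Arnt2, −0.57 to 0.18 for Dcaf12l1 (−0.64 without both), −0.27 to 0.79 for Kcne3 (1.31 without both) and −0.41 to 1.77 for Spp1.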
